A study of Diospyros kaki with 21 samples.

Results

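The first day after harvest was examined in untreated persimmon fruit by setting the CK 1 d libraries against the CK 0 d libraries, 6 of the 21 libraries of the series, chosen by their treatment and time labels. CK 1 d was flesh of control 'Jingmianshi' fruit (Diospyros kaki, an astringent cultivar) held for 1 d in air in closed containers, with 3 replicates (A, B and C). CK 0 d was flesh of the fruit at 0 d in storage, before any container treatment, also with 3 replicates. All 6 libraries came from 1 cultivar, harvest and tissue, with neither CO2 nor 1-MCP, and the study states 3 biological replicates without saying how many fruit each held. The container and the day of storage came together, so they cannot be told apart here.

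Persimmon is a climacteric fruit, in which ripening goes with a rise in ethylene. Ethylene is made from S-adenosylmethionine by ACC synthase and then ACC oxidase, and the last step also releases cyanide, which β-cyanoalanine synthase removes. Receptors, the kinase CTR1 and the factors EIN3/EIL and ERF pass the signal on, and softening follows the work of enzymes on pectin, galactan and xyloglucan of the cell wall. Fruit taken from the tree also lose their supply of sugar, and sugar starvation, wounding and dehydration each have known marker genes.

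Values came from 261970 assembled unigenes without genome positions, as estimated counts for the tests and FPKM (fragments scaled to unigene length and library depth) for levels. Total counts were 18150327 to 22043935 in CK 1 d and 15782292 to 23716828 in CK 0 d. Spearman correlations over unigenes were 0.849 to 0.866 within CK 1 d, 0.863 to 0.875 within CK 0 d and 0.828 to 0.853 between the groups. The first principal component, with 25.7% of the variance, separated the groups, and the second, with 20.4%, set CK 1 d B apart. Flesh markers were present, with 146 to 193 FPKM in CK 1 d and 129 to 163 FPKM in CK 0 d in sum for chalcone synthase and 18.9 to 37.4 FPKM in CK 1 d and 26.3 to 55.1 FPKM in CK 0 d for anthocyanidin reductase, an enzyme of the tannin path. Leucoanthocyanidin reductase, of the same path, was lower without overlap, at 7.06 to 11.5 FPKM in CK 1 d and 13.6 to 15.9 FPKM in CK 0 d, from 8 unigenes of which 1 was tested. Oleosin, a seed marker, summed to 13.96 to 15.9 FPKM in CK 1 d and 11.6 to 14.1 FPKM in CK 0 d, and unigenes named for organisms other than plants took 0.00565% to 0.0103% of all FPKM. Lipid-transfer proteins, which mark the epidermis, summed to 1539 to 1912 FPKM in CK 1 d and 1731 to 2879 FPKM in CK 0 d, with overlap of the groups, whereas 3-ketoacyl-CoA synthases, which make the long chains of cuticle wax, were higher without overlap, at 59.5 to 75.8 FPKM in CK 1 d and 47.03 to 49.7 FPKM in CK 0 d. Chlorophyll a/b-binding proteins summed to 89.4 to 132 FPKM in CK 1 d and 62.1 to 91.1 FPKM in CK 0 d. In bulk tissue, fewer cells of a type and less RNA per cell cannot be told apart, and the part of other tissues in the results was not tested.

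Unigenes of ACC oxidase, cyanoalanine synthase and several stress-related proteins were among those that rose within 1 d, and unigenes of S-adenosylhomocysteine hydrolase and phosphoglycerate dehydrogenase were among those that fell. Of 60332 unigenes tested with edgeR, 34 rose (0.0564%) and 7 fell (0.0116%) at an adjusted p below 0.05, and all 41 had an adjusted p below 0.05 in DESeq2 and FPKM that did not overlap between the groups. Such a lack of overlap was found for 9.02% of all unigenes tested with CK 1 d higher and 14% with CK 1 d lower. These shares leaned to the lower side more than those of the tests. FPKM lacked the scaling between libraries used in the tests, and whether this made the difference was not tested. Over 5-fold, the threshold of the study, 5 rose (0.00829%) and 3 fell (0.00497%). At an unadjusted p below 0.05, 7.12% of all unigenes tested were higher and 7.24% lower, with a median log2 fold change (CK 1 d over CK 0 d) of -0.01, and these shares are the background for each list of genes below. The calls on single unigenes were sensitive, with 1 higher and 1 lower without CK 1 d A, 0 without any other 1 library, and 1674 (2.77%) higher and 1374 (2.28%) lower in DESeq2. Several unigenes can be pieces or alleles of one gene and share its reads, so counts were also summed over unigenes with the same protein name. Unigenes without a protein name were kept singly among these entries. On these sums, edgeR called 2.4% of 28913 entries higher (695) and 2.08% lower (602), with 0.121% and 0.145% over 5-fold. Leaving out 1 library gave from 27 higher and 12 lower without CK 0 d C to 823 and 1026 without CK 1 d B. In what follows, a change of a summed name is a call of that fit, and unigenes that did not pass the test were, apart from the most abundant of each list, chosen after their values were seen. Summed names given are Diospyros names that passed and others picked by hand, all of which passed as well. They are therefore not a sample of all entries.

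Ethylene biosynthesis was the list with the most called members, 3 of 41 tested, while 0.0564% of all unigenes tested were called higher. All 3 were unigenes of ACC oxidase, the enzyme of the last step, and rose. Cluster-16487.161351, matched to a persimmon ACC oxidase, had 56.9, 69.3 and 59.1 FPKM in CK 1 d, against 18.6, 20.98 and 20.4 FPKM in CK 0 d. Its groups were far apart, and it rose 3.23-fold (log2 fold change 1.69 ± 0.11, SE; edgeR adjusted p = 0.0439). Cluster-16487.134139 had 228, 182 and 204 FPKM in CK 1 d, against 54.7, 63.7 and 76.04 FPKM in CK 0 d, and Cluster-16487.134130 had 175, 125 and 146 FPKM in CK 1 d, against 46.2, 38.97 and 46.4 FPKM in CK 0 d. Both matched the persimmon enzyme DK-ACO1 and rose by 1.73 and 1.83 on the log2 scale (edgeR adjusted p = 0.046 and 0.046). They can be pieces or alleles of one gene, so the called unigenes need not stand for as many genes. Further ACC oxidase unigenes with no overlap between the groups did not pass the test. They included Cluster-16487.134131, with 230.3, 170.04 and 158 FPKM in CK 1 d, against 38.2, 42.6 and 58.9 FPKM in CK 0 d (log2 fold change 2.07 ± 0.26, edgeR adjusted p = 0.0558).

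Summed by name, ACC oxidase of persimmon (5 unigenes) had 61.9, 73.9 and 64.3 CPM in CK 1 d, against 20.6, 22.7 and 22.2 CPM in CK 0 d, where CPM is the count scaled to a library total of 1000000. It rose by 1.67 ± 0.10 on the log2 scale (edgeR adjusted p = 0.00343), and stayed past the test without each library in turn (adjusted p 0.00548 to 0.035). The partial persimmon ACC oxidase rose by 2.08 ± 0.24 (edgeR adjusted p = 0.0118). ACC synthase forms ACC and often limits ethylene output. Its summed name had 13.8, 17.7 and 20.6 CPM in CK 1 d, against 7.73, 10.2 and 11.1 CPM in CK 0 d and rose by 0.89 ± 0.16 (edgeR adjusted p = 0.0289, and 0.0497 to 0.108 without 1 library). Of the 41 tested members of the list, 11 were higher (26.8%, against 7.12% of all unigenes) and 3 lower at an unadjusted p below 0.05. The FPKM of the list summed to 1101 to 1188 FPKM in CK 1 d and 528 to 609 FPKM in CK 0 d. S-adenosylmethionine synthetase Cluster-16487.115385, upstream of both enzymes, had 46.3, 71.7 and 45.8 FPKM in CK 1 d, against 101, 88.4 and 89.3 FPKM in CK 0 d and did not pass the test (edgeR adjusted p = 0.196).

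**Figure D1:**
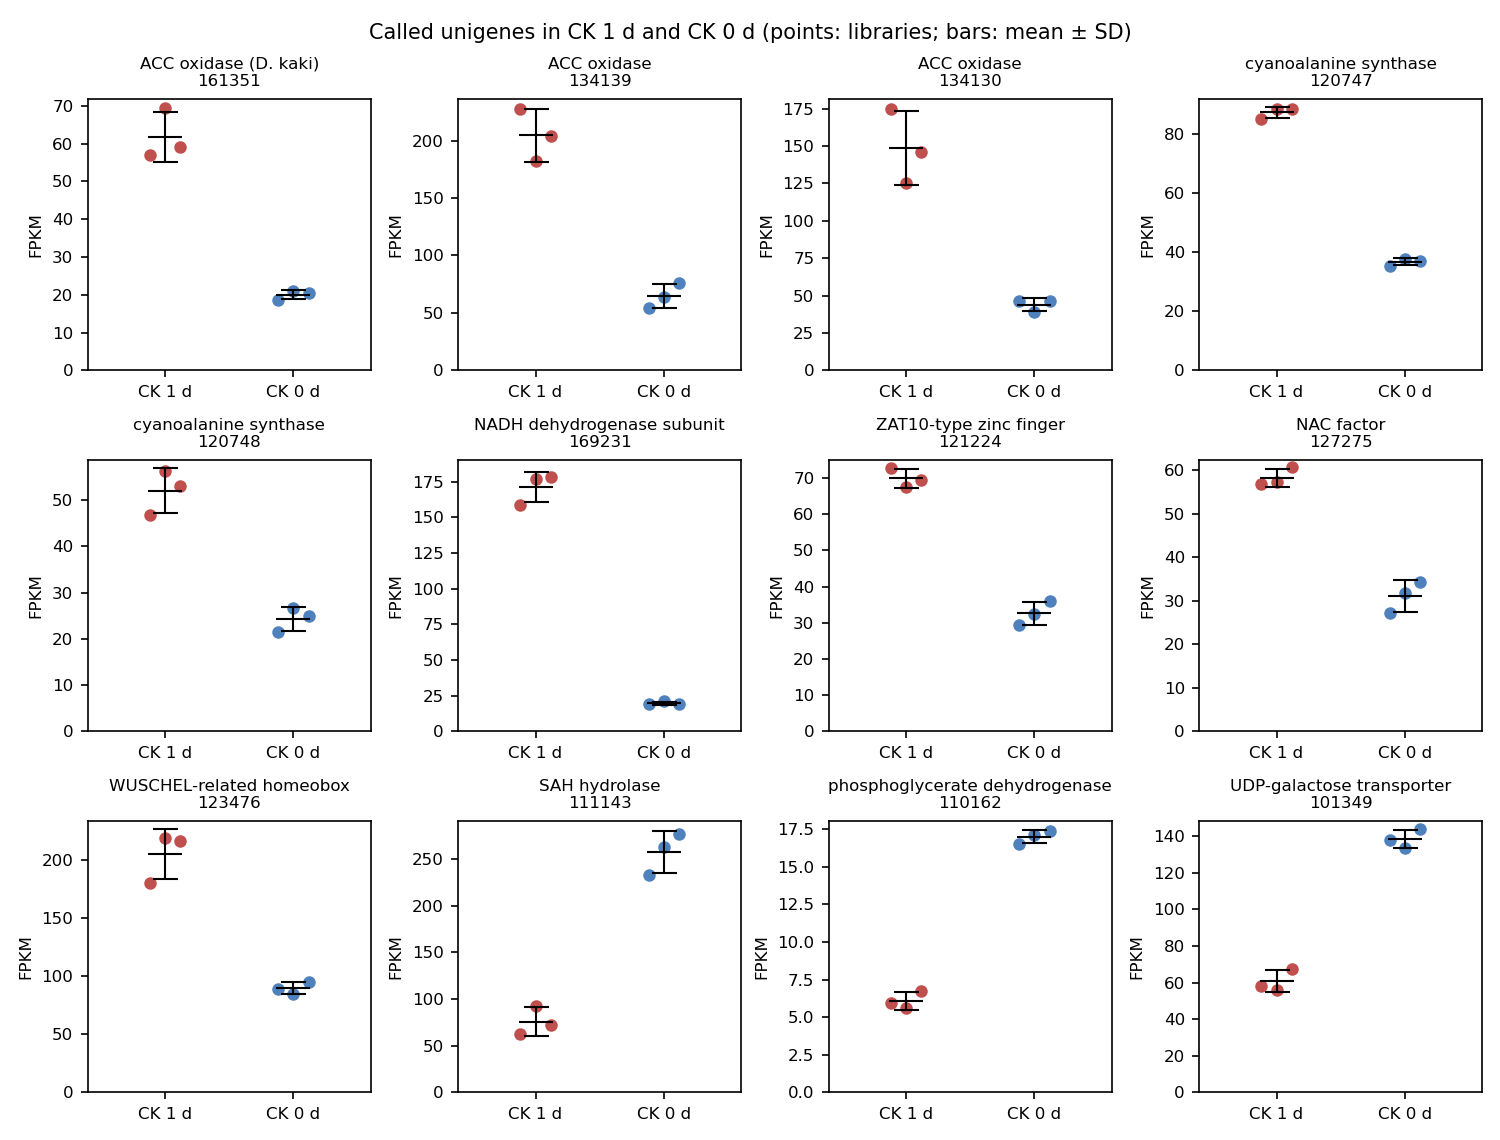
FPKM of 12 called unigenes in the libraries of CK 1 d (left) and CK 0 d (right), with 1 point per library and bars for mean ± SD; the number over each panel is the last part of the unigene's identifier. The 3 CK 1 d points lie above all CK 0 d points in the first 9 panels and below them in SAH hydrolase, phosphoglycerate dehydrogenase and the UDP-galactose transporter.

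Cyanoalanine synthase, which joins the cyanide released by ACC oxidase to cysteine, moved in the same direction. Cluster-16487.120747 had 85.2, 88.3 and 88.4 FPKM in CK 1 d, against 35.5, 37.8 and 37.1 FPKM in CK 0 d. The 3 libraries of each group lay close together, and the unigene rose 2.48-fold (log2 fold change 1.31 ± 0.07, edgeR adjusted p = 0.0267). Cluster-16487.120748, a mitochondrial form by its annotation, had 46.8, 56.4 and 53.1 FPKM in CK 1 d, against 21.6, 26.6 and 24.9 FPKM in CK 0 d and rose by 1.16 ± 0.11 (edgeR adjusted p = 0.046). Another abundant member, Cluster-16487.120749, had 89.8, 84.96 and 91.7 FPKM in CK 1 d, against 94.8, 61.1 and 74.7 FPKM in CK 0 d, with overlap. The name that holds the first of these (12 unigenes) rose by 0.96 ± 0.07 when summed (edgeR adjusted p = 0.00343, and 0.00757 to 0.0355 without 1 library). Among 39 tested cyanoalanine and cysteine synthases, a list drawn up after the calls were seen, 8 were higher (20.5%) and 3 lower (7.69%) at an unadjusted p below 0.05. The shares over all unigenes were 7.12% and 7.24%. Without CK 0 d B, 5 members were higher.

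S-adenosylhomocysteine (SAH) hydrolase recycles the product of methylation reactions, and phosphoglycerate dehydrogenase starts the synthesis of serine. SAH hydrolase Cluster-16487.111143 had 62.2, 92.8 and 72.5 FPKM in CK 1 d, against 233, 263 and 277 FPKM in CK 0 d. It fell, with a log2 fold change of -1.70 ± 0.15 (edgeR adjusted p = 0.046). Phosphoglycerate dehydrogenase Cluster-16487.110162 had 5.95, 5.59 and 6.75 FPKM in CK 1 d, against 16.5, 17.1 and 17.4 FPKM in CK 0 d and also fell (log2 fold change -1.42 ± 0.10, edgeR adjusted p = 0.0439). Other SAH hydrolase unigenes, Cluster-16487.113926 and Cluster-16487.113121, had the same direction without passing the test (edgeR adjusted p = 0.0561 and 0.0653). The first of these averaged 68.8 ± 17.8 FPKM in CK 1 d and 228 ± 31.2 FPKM in CK 0 d, and the second 32.2 ± 8.37 FPKM in CK 1 d and 94.7 ± 17.5 FPKM in CK 0 d (SD, n = 3 each). The most abundant one, Cluster-16487.112673, differed from these, with 1245, 2395 and 1440.3 FPKM in CK 1 d, against 1701, 1479 and 1682 FPKM in CK 0 d and overlap of the groups (log2 fold change 0.13 ± 0.25). Summed by name, phosphoglycerate dehydrogenase (23 unigenes) and serine hydroxymethyltransferase (34 unigenes), which passes one-carbon units to folate, fell by 0.76 and 0.55 on the log2 scale (edgeR adjusted p = 0.0145 and 0.0346). In a list of this cycle, again drawn up after the calls were seen, 28 of 130 tested members were lower (21.5%, against 7.24% of all unigenes) and 3 higher at an unadjusted p below 0.05. Its summed FPKM overlapped between the groups, at 9734 to 15519.9 FPKM in CK 1 d and 12154 to 15385 FPKM in CK 0 d.

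The lowest adjusted p belonged to Cluster-16487.169231, with 159, 177 and 178 FPKM in CK 1 d, against 19.5, 21.1 and 18.96 FPKM in CK 0 d. It rose 9.03-fold (log2 fold change 3.17 ± 0.11, edgeR adjusted p = 0.00258), and was the 1 higher unigene still called without CK 1 d A. Its protein match is named for a subunit of mitochondrial complex I, but no domain or orthology entry goes with it. Other large differences in abundant unigenes varied among the CK 1 d libraries. Cluster-16487.53513, matched to talisin, a seed trypsin inhibitor of Talisia, had 194, 31.6 and 63.1 FPKM in CK 1 d, against 5.98, 17.7 and 4.34 FPKM in CK 0 d (log2 fold change 3.46 ± 0.86, edgeR adjusted p = 0.152). Cluster-16487.145261, which carries a Bet v I domain of pathogenesis-related proteins, had 46.1, 15.1 and 16.9 FPKM in CK 1 d, against 139.6, 147 and 141 FPKM in CK 0 d (log2 fold change -2.38 ± 0.45, edgeR adjusted p = 0.0915), and was the 1 lower unigene called without CK 1 d A, at -3.11 with an edgeR adjusted p of 0.0255.

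Further unigenes that rose included 3 transcription factors. The zinc finger factor Cluster-16487.121224, like ZAT10, a stress-induced repressor in Arabidopsis, had 72.8, 67.5 and 69.4 FPKM in CK 1 d, against 29.4, 32.4 and 35.96 FPKM in CK 0 d (log2 fold change 1.17 ± 0.09, edgeR adjusted p = 0.0439). The NAC factor Cluster-16487.127275, most like NAC100 of Arabidopsis, had 56.8, 57.3 and 60.6 FPKM in CK 1 d, against 27.2, 31.9 and 34.3 FPKM in CK 0 d (log2 fold change 0.97 ± 0.09, edgeR adjusted p = 0.0476). The homeobox factor Cluster-16487.123476, most like WOX13, had 180.4, 219 and 216 FPKM in CK 1 d, against 89.3, 84.5 and 94.6 FPKM in CK 0 d (log2 fold change 1.26 ± 0.10, edgeR adjusted p = 0.0439). In all of these the 3 CK 1 d libraries lay above the 3 CK 0 d libraries.

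CAF1, Cluster-16487.107302, a deadenylase that shortens the tails of mRNAs, rose by 1.64 on the log2 scale, with means of 27.6 ± 2.15 FPKM in CK 1 d and 9.25 ± 0.994 FPKM in CK 0 d (SD, n = 3 each). Syntaxin-121, Cluster-16487.176965, a plasma membrane syntaxin that works in secretion and in resistance to fungi in Arabidopsis, averaged 20.9 ± 1.99 FPKM in CK 1 d and 6.83 ± 0.710 FPKM in CK 0 d and rose by 1.67. A pair of NDR1/HIN1-like unigenes, Cluster-16487.69909 and Cluster-16487.65327, of a family tied to defence and senescence in Arabidopsis and tobacco, rose by 1.68 and 1.48. The HSPRO2-like unigene Cluster-16487.111157 averaged 123 ± 14.5 FPKM in CK 1 d and 57.1 ± 5.18 FPKM in CK 0 d and rose by 1.17. A pair of unigenes like the mitochondrial carrier UCP5, Cluster-16487.105884 and Cluster-16487.89668, rose by 1.53 and 1.57. The U-box ubiquitin ligase PUB17, Cluster-16487.163085, rose by 1.15, inositolphosphorylceramide synthase, Cluster-16487.123416, a sphingolipid enzyme, by 1.15, and an elongation factor G, Cluster-16487.105251, by 1.43. Each of these had an edgeR adjusted p between 0.0439 and 0.0476.

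Among those that fell, the UDP-galactose transporter Cluster-16487.101349, which brings the sugar to the Golgi for wall polysaccharides, had 58.3, 56.2 and 67.6 FPKM in CK 1 d, against 138, 134 and 144 FPKM in CK 0 d (log2 fold change -1.13 ± 0.09, edgeR adjusted p = 0.0439). A fumarylacetoacetase-like unigene, Cluster-16487.91894, averaged 1.12 ± 0.415 FPKM in CK 1 d and 10.96 ± 0.731 FPKM in CK 0 d and fell by 3.21 on the log2 scale. The methyltransferase PMT2-like Cluster-16487.156375 fell by 3.31, with means of 0.383 ± 0.110 FPKM in CK 1 d and 3.92 ± 0.918 FPKM in CK 0 d. In all, 4 called unigenes of low level had 0 counts in every library of one group. With a floor of 3 counts over the group, the VPS18-like Cluster-16487.137721 (467 counts in CK 1 d) was at least 153-fold higher, the cyclophilin CYP71-like Cluster-16487.127838 at least 142-fold higher, the aarF-type kinase Cluster-16487.151931 at least 85.6-fold higher and the F-box unigene Cluster-16487.91853 (432 counts in CK 0 d) at least 147-fold lower in CK 1 d. These bounds cover counting error only. Each of these unigenes passed the filter on counts through the group with counts alone. Whether reads moved between pieces or alleles of one gene was not tested.

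Ethylene perception and signalling shifted by smaller steps, and no single unigene of it passed the test. Of 59 tested members, 10 were higher (16.9%, against 7.12%) and 1 lower at an unadjusted p below 0.05. The DkEIL1 name, for a factor that switches on ethylene-responsive genes, had 603, 522 and 525 CPM in CK 1 d, against 355, 424 and 377 CPM in CK 0 d and rose by 0.57 ± 0.10 on the log2 scale (edgeR adjusted p = 0.0282 in the summed fit). The CTR1-like kinase, a negative regulator, had 16.8, 14.2 and 13.1 CPM in CK 1 d, against 6.84, 8.55 and 9.57 CPM in CK 0 d and rose by 0.88 ± 0.16 (edgeR adjusted p = 0.028 in the summed fit). An EIN3-binding F-box unigene, Cluster-16487.123321, for a protein that removes EIN3, had 26.4, 28.4 and 28.98 FPKM in CK 1 d, against 17.2, 23.2 and 22.5 FPKM in CK 0 d (edgeR adjusted p = 0.134). A more abundant one, Cluster-16487.113527, had 70.3, 72.9 and 65.3 FPKM in CK 1 d, against 60.5, 74.6 and 74.7 FPKM in CK 0 d, with overlap (log2 fold change 0.06 ± 0.10, edgeR adjusted p = 0.878). Ethylene receptor unigenes Cluster-16487.69986 and Cluster-16487.122272 averaged 10.3 ± 0.916 FPKM in CK 1 d and 5.83 ± 2.36 FPKM in CK 0 d, and 64.2 ± 4.90 FPKM in CK 1 d and 49.6 ± 9.09 FPKM in CK 0 d, and did not pass the test (edgeR adjusted p = 0.215 and 0.236).

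The AP2/ERF factors, which act at the end of the ethylene path and in stress, had more higher than lower members. Of 174 tested, 43 were higher (24.7%) and 8 lower (4.6%) at an unadjusted p below 0.05, with a median log2 fold change of 0.42, against -0.01 over all unigenes. Without any 1 library, 40 to 51 were higher, and 17 lower without CK 1 d B. Of the 19 persimmon ERF names tested, 7 rose and 0 fell when summed by name. Of all 153 Diospyros names tested, 16.3% rose and 4.58% fell, and of all entries of that fit 2.4% and 2.08%. ERF21 was the largest, with 2.92, 5.40 and 5.49 CPM in CK 1 d, against 0.253, 0.726 and 0.295 CPM in CK 0 d, a rise of 3.48 ± 0.44 on the log2 scale from a low level (edgeR adjusted p = 0.0128). ERF5, ERF26 and ERF22 rose by 1.24, 1.20 and 1.36, and ERF24, ERF23 and ERF1 by 1.01, 0.84 and 0.65. ERF23 had 79.5, 95.04 and 101 CPM in CK 1 d, against 46.1, 57.2 and 57.6 CPM in CK 0 d. No DkERF unigene passed the test singly. Cluster-16487.90127, the 1 unigene named ERF26, had 64.5, 98.3 and 91.9 FPKM in CK 1 d, against 34.7, 41.6 and 39.1 FPKM in CK 0 d (edgeR adjusted p = 0.0637). ERF3, Cluster-16487.112976, one of the most abundant, had 168, 187 and 166 FPKM in CK 1 d, against 166, 176 and 172 FPKM in CK 0 d, with overlap. Opposite in direction was Cluster-16487.157593, most like ERF023 of Arabidopsis, with 1.73, 3.30 and 2.71 FPKM in CK 1 d, against 14.8, 10.8 and 14.4 FPKM in CK 0 d (log2 fold change -2.31 ± 0.29, edgeR adjusted p = 0.0558).

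**Figure D2:**
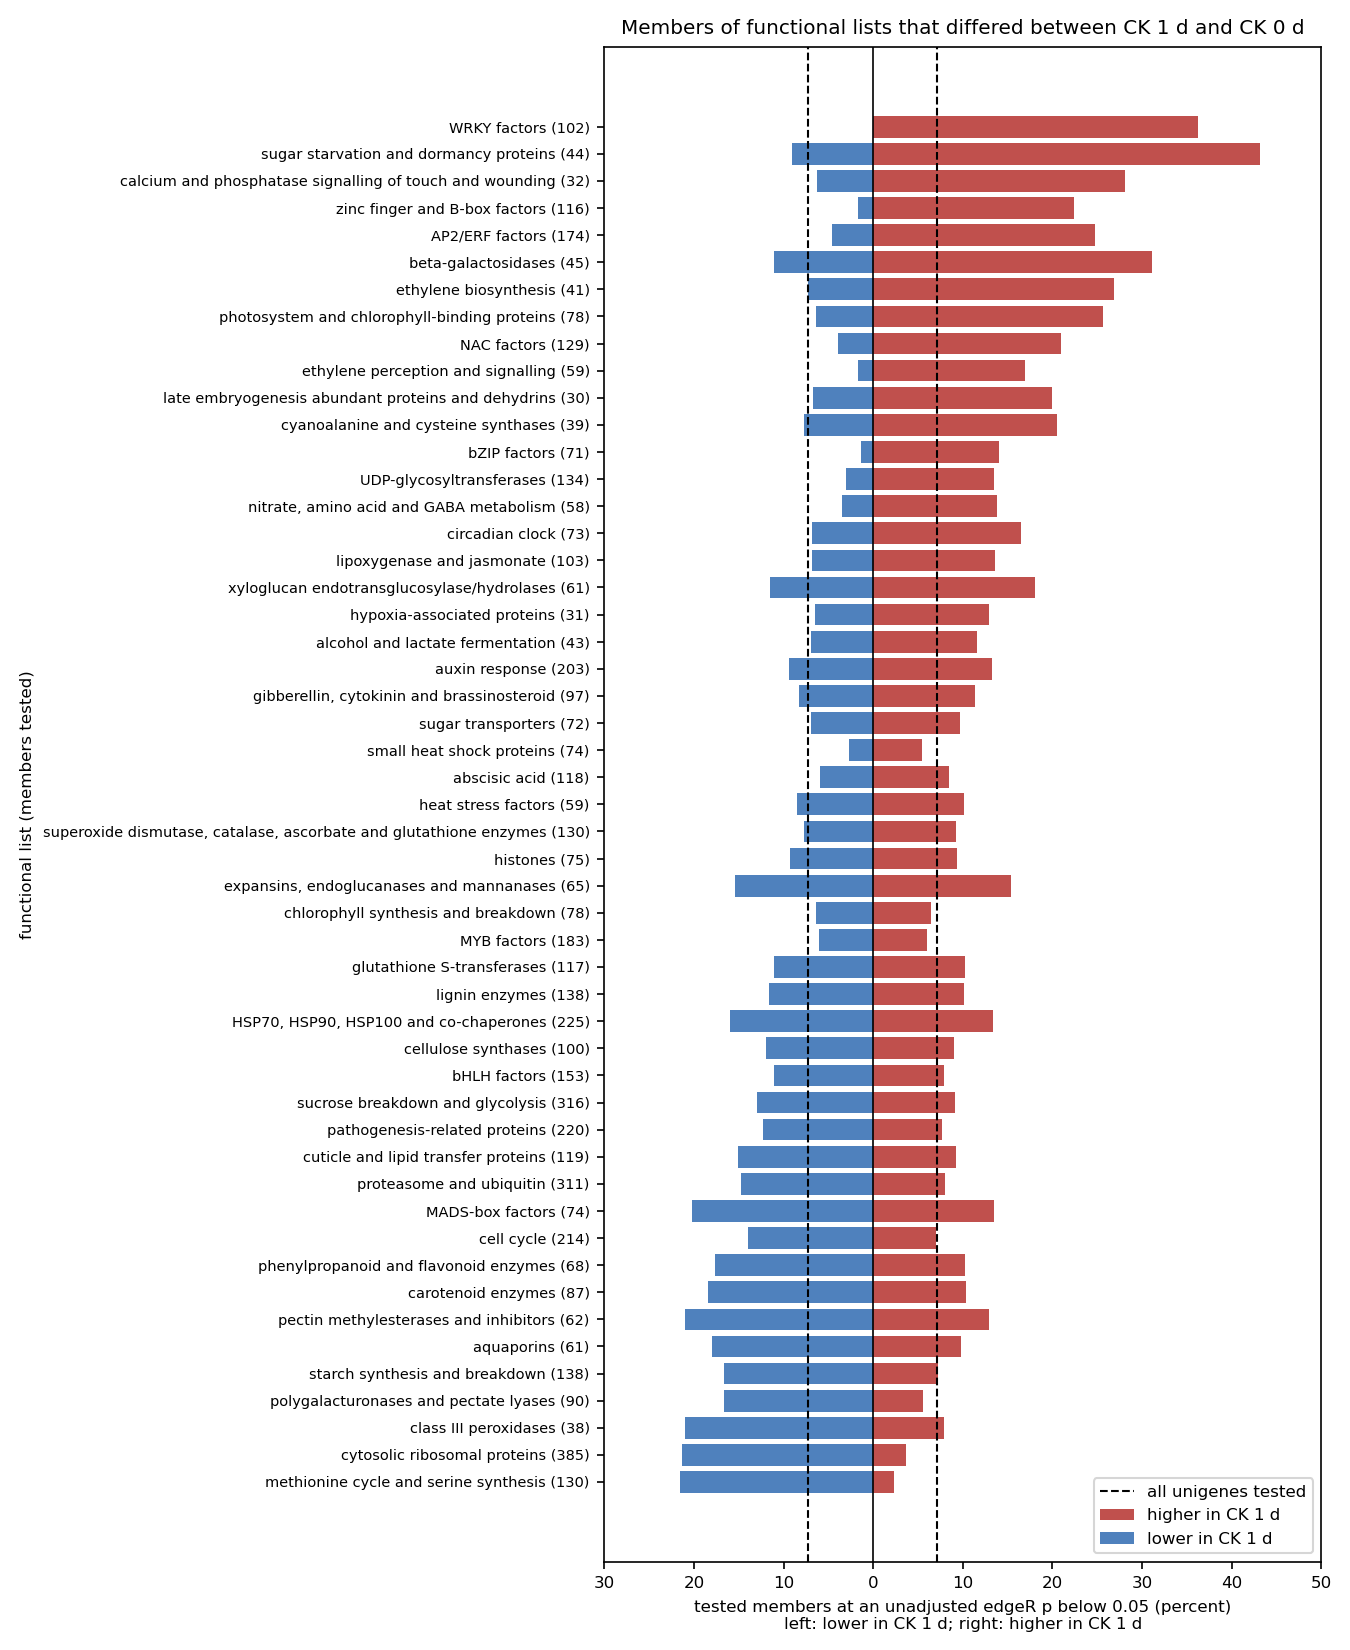
Share of the tested members of each functional list (in percent) at an unadjusted edgeR p below 0.05, higher in CK 1 d to the right and lower to the left, for the 51 lists with at least 30 tested members. The lists of methionine cycle and serine synthesis and of cyanoalanine and cysteine synthases were drawn up after the calls were seen. The dashed lines mark all unigenes tested (7.12% and 7.24%), and WRKY factors reach 36.3% higher with 0 lower, whereas cytosolic ribosomal proteins reach 21.3% lower.

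WRKY factors, known for wounding, defence and senescence, were the most one-sided of the transcription factor lists shown. Of 102 tested, 37 were higher (36.3%, against 7.12%) and 0 lower at an unadjusted p below 0.05, and DESeq2 called 19 higher and 0 lower at its adjusted p, whereas edgeR called none. Without any 1 library, 30 to 38 were higher and 0 to 2 lower. The FPKM of the list summed to 849.9 to 979.6 FPKM in CK 1 d and 622 to 708 FPKM in CK 0 d. All 3 persimmon WRKY names tested rose when summed, against 16.3% of all 153 Diospyros names and 2.4% of all entries. DkWRKY1 had 11.99, 15.2 and 20.96 CPM in CK 1 d, against 5.89, 6.42 and 5.52 CPM in CK 0 d (log2 fold change 1.48 ± 0.20, edgeR adjusted p = 0.0138). DkWRKY3 and DkWRKY2 rose by 1.85 and 0.94 (edgeR adjusted p = 0.0246 and 0.0274). The unigene Cluster-16487.40370 had 3.40, 3.02 and 5.48 FPKM in CK 1 d, against 0.720, 0.780 and 0.810 FPKM in CK 0 d, and Cluster-16487.133720, at a higher level, had 55.1, 61.3 and 57.1 FPKM in CK 1 d, against 23.1, 34.1 and 34.1 FPKM in CK 0 d (edgeR adjusted p = 0.0531 and 0.0654).

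NAC factors, several of which act in ripening and senescence, had 27 of 129 tested unigenes higher (20.9%) and 5 lower (3.88%) at an unadjusted p below 0.05, with 1 called by edgeR. The summed persimmon NAC name (25 unigenes) had 253, 230.03 and 208 CPM in CK 1 d, against 153, 171 and 137 CPM in CK 0 d and rose by 0.64 ± 0.13 (edgeR adjusted p = 0.0383). Zinc finger and B-box factors were higher in 26 and lower in 2 of 116, with the stress-associated A20/AN1 unigene Cluster-16487.115674 at 72.8, 74.2 and 72.2 FPKM in CK 1 d, against 41.3, 44.8 and 49.2 FPKM in CK 0 d (edgeR adjusted p = 0.0531). MYB factors, by contrast, had 11 of 183 higher and 11 lower, 6.01% in each direction near the share over all unigenes, with 17 lower without CK 1 d B.

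Among all 153 protein names of Diospyros tested on summed counts, 25 rose (16.3%, against 2.4% of all entries) and 7 fell (4.58%, against 2.08%). All entries include single unigenes without a name, so the shares are not of like sets. Ethylene enzymes and factors, WRKY factors and enzymes of galactan and xyloglucan were found on the higher side. AGL6, matched to Diospyros digyna and a member of the MADS-box factors, basic chitinase 1, phytoene desaturase, XTH6 and endoglucanase 2 were found on the lower side. Only ACC oxidase of these 32 stayed past the test without each library in turn. Of all 43 names printed here or drawn, 21, 38 and 10 were past it without CK 1 d A, B and C in turn, and 10, 9 and 5 without CK 0 d A, B and C.

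**Figure D3:**
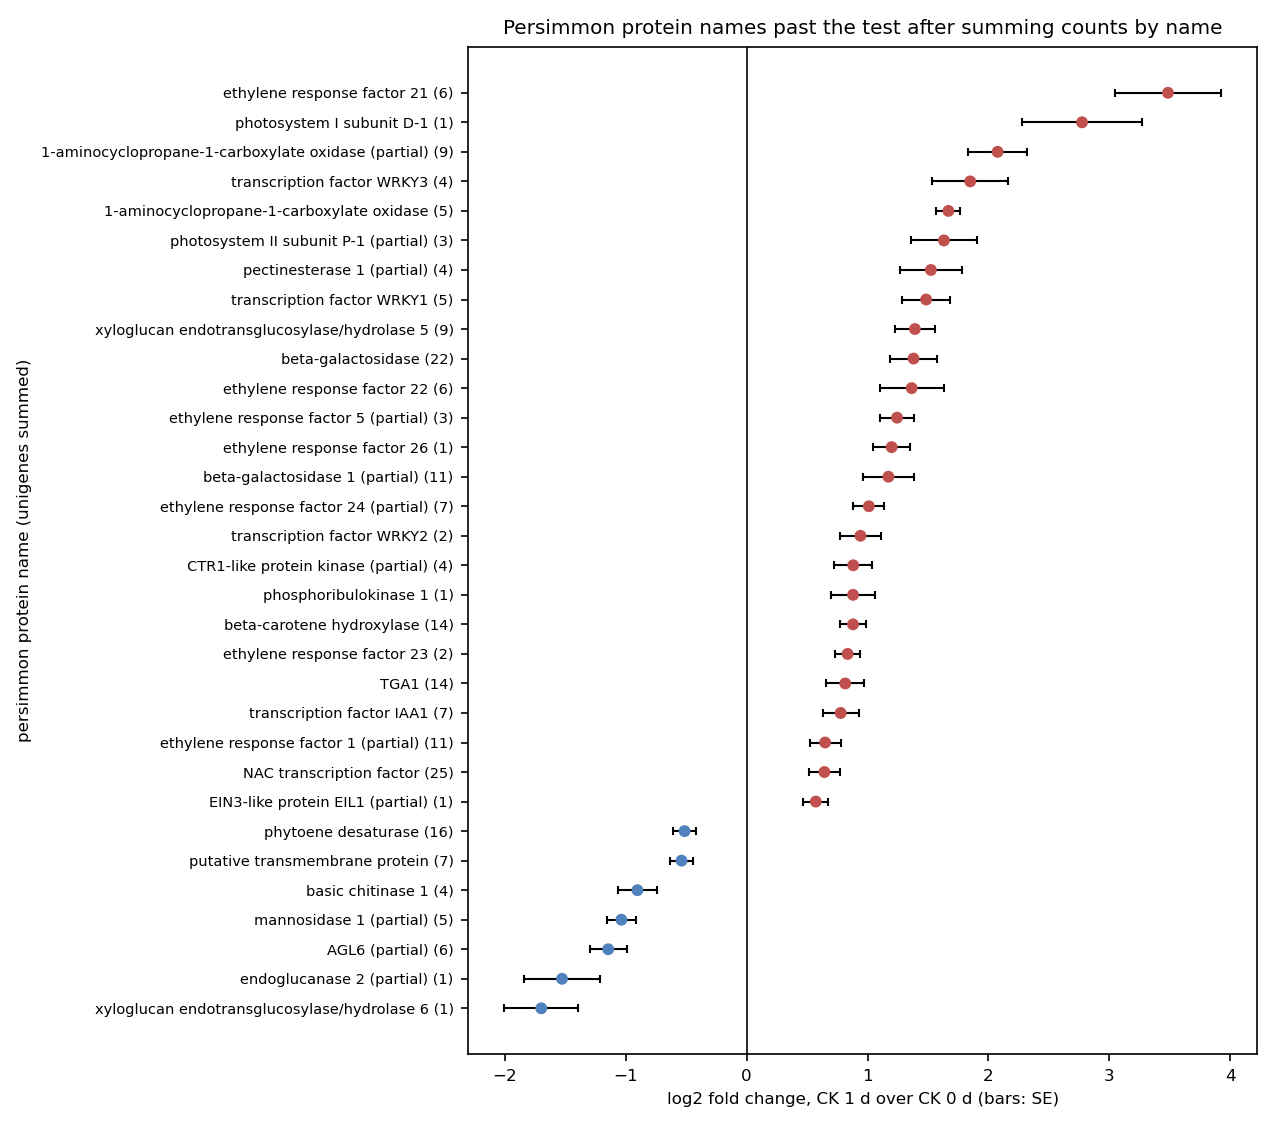
Log2 fold change (CK 1 d over CK 0 d, bars are SE) of the 32 Diospyros protein names past an edgeR adjusted p of 0.05 on counts summed by name, with the number of unigenes summed in brackets. The 25 names to the right of 0 run up to 3.48 for ERF21, and the 7 to the left down to -1.70 for XTH6.

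Genes of cell wall breakdown did not move together. β-Galactosidase, which removes galactose from pectin side chains, rose as a summed name. This persimmon name (22 unigenes) had 855, 521 and 799 CPM in CK 1 d, against 288, 242 and 340.4 CPM in CK 0 d and rose by 1.38 ± 0.20 on the log2 scale (edgeR adjusted p = 0.016, and 0.00767 to 0.0735 without 1 library). CK 1 d B was the lowest of the CK 1 d libraries, and still above all CK 0 d libraries. β-Galactosidase 1 rose by 1.17 ± 0.21 (edgeR adjusted p = 0.0272). Singly, Cluster-16487.116597 had 1494, 902 and 1361 FPKM in CK 1 d, against 492, 336 and 484 FPKM in CK 0 d (edgeR adjusted p = 0.0727). A weaker unigene of the same name, Cluster-16487.115410, ran the other way, with 1.09, 2.66 and 1.83 FPKM in CK 1 d, against 10.5, 11.97 and 15.03 FPKM in CK 0 d (log2 fold change -2.68 ± 0.32, edgeR adjusted p = 0.0531), so this name sums unlike unigenes. Of 45 tested, 14 were higher (31.1%) and 5 lower (11.1%) at an unadjusted p below 0.05.

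Xyloglucan endotransglucosylase/hydrolases (XTH), which cut and rejoin xyloglucan, split by name. XTH5 had 62.4, 76.2 and 108 CPM in CK 1 d, against 29.8, 33.5 and 33.9 CPM in CK 0 d and rose by 1.39 ± 0.17 (edgeR adjusted p = 0.0121), while XTH6 had 2.37, 5.40 and 3.86 CPM in CK 1 d, against 16.3, 10.4 and 12.3 CPM in CK 0 d and fell, with a log2 fold change of -1.70 ± 0.31 (edgeR adjusted p = 0.0284). Neither pair of groups overlapped. Expansin-A4, Cluster-16487.112628, for a protein that loosens walls, had 2160.4, 2983 and 2662 FPKM in CK 1 d, against 1478, 1663 and 1626 FPKM in CK 0 d. It missed the threshold as a single unigene (edgeR adjusted p = 0.0692) and passed it in the summed fit, where it is also 1 unigene (0.0164). Endoglucanase 2 had 5.28, 12.7 and 9.07 CPM in CK 1 d, against 20.7, 35.7 and 24.7 CPM in CK 0 d and fell (log2 fold change -1.53 ± 0.31, edgeR adjusted p = 0.0393 in the summed fit).

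Pectin methylesterases and their inhibitors, and polygalacturonases and pectate lyases, which cut the pectin backbone, had members in both directions. At an unadjusted p below 0.05, 13 of 62 of the first were lower (21%) and 8 higher (12.9%), and 15 of 90 of the second lower (16.7%) and 5 higher (5.56%). Methylesterases and inhibitors numbered 7 higher and 7 lower without CK 1 d A or CK 0 d C, 7 and 5 without CK 1 d C and 5 and 4 without CK 0 d B. The lower polygalacturonases and lyases numbered 9 without CK 1 d C and 8 without CK 0 d B. The polygalacturonase β-subunit Cluster-16487.130652 had 34.4, 74.7 and 46.5 FPKM in CK 1 d, against 122, 169.2 and 201 FPKM in CK 0 d (edgeR adjusted p = 0.0939). The pectinesterase 1 name rose by 1.52 ± 0.25, with 17.7, 31.8 and 18.8 CPM in CK 1 d, against 9.50, 7.54 and 7.67 CPM in CK 0 d (edgeR adjusted p = 0.0231 in the summed fit).

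The list of sugar starvation and dormancy proteins had more higher than lower members. The FPKM sums of sucrose breakdown and glycolysis and of sugar transporters were lower. In the list of sugar starvation and dormancy proteins, 19 of 44 tested members were higher (43.2%, against 7.12%) and 4 lower at an unadjusted p below 0.05, with a median log2 fold change of 0.68 (0.46 to 0.65 without 1 library). edgeR called 0 of them and DESeq2 15, all higher. The list summed to 15215 to 25583 FPKM in CK 1 d and 10243 to 12014 FPKM in CK 0 d. The dormancy-associated protein homolog 3 name had 2302, 1191 and 1733 CPM in CK 1 d, against 950.5, 748 and 814 CPM in CK 0 d and rose by 1.11 ± 0.23 (edgeR adjusted p = 0.042 in the summed fit). The auxin-repressed unigene Cluster-16487.117396, of the same family, had 345, 283 and 366 FPKM in CK 1 d, against 158, 131 and 133 FPKM in CK 0 d (edgeR adjusted p = 0.0531). Another abundant member, Cluster-16487.108554, had 3411, 2286 and 2557 FPKM in CK 1 d, against 2365, 2656 and 2315 FPKM in CK 0 d, with overlap (edgeR adjusted p = 0.592). The members given here are dormancy-associated or auxin-repressed proteins, and some members are also in the auxin response list. A link of the list to sugar supply was not tested.

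The list of sucrose breakdown and glycolysis summed to 17767 to 21306 FPKM in CK 1 d and 23867 to 26291 FPKM in CK 0 d, without overlap. Of its 316 tested members, 29 were higher (9.18%) and 41 lower (13%) at an unadjusted p below 0.05, with 27 lower without CK 1 d C, and 32 higher and 30 lower without CK 0 d B. Sugar transporters summed to 1495 to 1882 FPKM in CK 1 d and 2226 to 2589 FPKM in CK 0 d, also without overlap. Of 72 tested, 7 were higher (9.72%) and 5 lower (6.94%) at an unadjusted p below 0.05. These shares were near those over all unigenes (7.12% and 7.24%). Lower members numbered 10 without CK 1 d B, 3 without CK 1 d C and 2 without CK 0 d C. Vacuolar invertase, which splits stored sucrose, differed from the sum. Cluster-16487.110206 had 33.5, 33.3 and 35.4 FPKM in CK 1 d, against 8.60, 13.8 and 10 FPKM in CK 0 d. Its groups did not overlap, and its edgeR adjusted p was 0.052 singly and 0.00592 in the summed fit, where the name of 2 unigenes rose by 1.73 ± 0.16. The abundant acid invertase Cluster-16487.110754 was lower in value, with 3377, 5027 and 4205 FPKM in CK 1 d, against 5938, 6677 and 6570.2 FPKM in CK 0 d (log2 fold change -0.54 ± 0.15, edgeR adjusted p = 0.173). The sucrose synthase name (10 unigenes) rose by 0.77 ± 0.11 (edgeR adjusted p = 0.0172). Glyceraldehyde-3-phosphate dehydrogenase Cluster-16487.197823, a glycolytic enzyme, had 66.8, 69.3 and 70.5 FPKM in CK 1 d, against 165, 117 and 155 FPKM in CK 0 d and did not pass the test (edgeR adjusted p = 0.0653). The hexose transporter Cluster-16487.113600 had 694, 1142 and 1053 FPKM in CK 1 d, against 1839, 1453 and 1826 FPKM in CK 0 d (edgeR adjusted p = 0.165). This unigene made up a large part of the transporter sum. Invertases Cluster-16487.110754 and Cluster-16487.117812 (the latter with means of 1714 FPKM in CK 1 d and 2717 FPKM in CK 0 d) weighed heavily in the sum of sucrose breakdown and glycolysis. None of them passed the test, and the sums without them were not examined. Sums of several unrelated lists also lacked overlap, being lower for glutathione S-transferases and cell cycle genes. They were higher for HSP70, HSP90, HSP100 and co-chaperones, where 13.3% of members were higher and 16% lower at an unadjusted p below 0.05.

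Transcripts of fermentation, which low oxygen raises in many plants, had overlapping sums after a day in closed containers of air. Of 43 tested members, 5 were higher and 3 lower at an unadjusted p below 0.05 (11.6% and 6.98%, against 7.12% and 7.24%), and the list summed to 545 to 608 FPKM in CK 1 d and 559.6 to 653 FPKM in CK 0 d. Without CK 1 d A, 3 were higher, and without CK 1 d B, 6 were lower. In fruit given CO2 for the same day the list summed to 12399 to 14267 FPKM. Pyruvate decarboxylase 3, Cluster-16487.111357, had 87.5, 99.6 and 94.1 FPKM in CK 1 d, against 72.9, 82.4 and 84.7 FPKM in CK 0 d (edgeR adjusted p = 0.188). Of 31 tested hypoxia-associated proteins, 4 were higher (12.9%) and 2 lower at an unadjusted p below 0.05 (4 lower without CK 0 d A), and DESeq2 called 3 higher and 1 lower. Plant hemoglobin, a member, scavenges nitric oxide under low oxygen. Its most common name (10 unigenes) had 52.5, 41.1 and 59.6 CPM in CK 1 d, against 17.4, 18.7 and 19.1 CPM in CK 0 d and rose by 1.53 ± 0.13 on the log2 scale (edgeR adjusted p = 0.00402 in the summed fit, and 0.00548 to 0.0422 without 1 library). Plant cysteine oxidase Cluster-16487.115570, an oxygen sensor, had 85.5, 85.3 and 96.6 FPKM in CK 1 d, against 98.9, 134 and 111 FPKM in CK 0 d (edgeR adjusted p = 0.356).

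Cytosolic ribosomal proteins were the largest list on the lower side. At an unadjusted p below 0.05, 82 of 385 were lower (21.3%, against 7.24%) and 14 higher, with a median log2 fold change of -0.22 (-0.28 to -0.17 without 1 library). Without CK 1 d B, 124 were lower. edgeR called 0 of them, and DESeq2 22 lower and 2 higher. Their FPKM summed to 29304 to 33182 FPKM in CK 1 d and 35986 to 36086 FPKM in CK 0 d, without overlap. L38, Cluster-16487.86452, had 80.7, 92.9 and 93.1 FPKM in CK 1 d, against 177, 162 and 148 FPKM in CK 0 d (log2 fold change -0.81 ± 0.11, edgeR adjusted p = 0.0653). The most abundant, protein SA, Cluster-16487.121319, had 3895, 4225 and 3957 FPKM in CK 1 d, against 4654, 4075 and 4470.2 FPKM in CK 0 d, with overlap.

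The most abundant transcripts of the flesh were chitinases and thaumatin-like proteins, of the pathogenesis-related families. Endochitinase Cluster-16487.111793 alone took 18.9% to 21.4% of counts in CK 1 d and 16.3% to 18.1% in CK 0 d. It had 332886, 304995 and 292541 FPKM in CK 1 d, against 282661, 281503 and 251637 FPKM in CK 0 d and did not pass the test (edgeR adjusted p = 0.42). A persimmon chitinase, Cluster-16487.111174, had 474837, 445277 and 485295 FPKM in CK 1 d, against 516356, 387520 and 405823 FPKM in CK 0 d, with overlap. Basic chitinase 1, a far weaker name, had 71.3, 73.4 and 76.6 CPM in CK 1 d, against 177, 124 and 127 CPM in CK 0 d and fell by 0.90 on the log2 scale (edgeR adjusted p = 0.0281 in the summed fit).

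Carotenoid genes moved in both directions along the path. β-Carotene hydroxylase, which forms the xanthophylls that colour the fruit, had 496, 522 and 485 CPM in CK 1 d, against 232, 299 and 323 CPM in CK 0 d by its summed persimmon name and rose by 0.88 ± 0.11 (edgeR adjusted p = 0.0122). Phytoene desaturase, an early enzyme, had 212, 273 and 252 CPM in CK 1 d, against 355, 367 and 369 CPM in CK 0 d and fell, with a log2 fold change of -0.51 ± 0.10 (edgeR adjusted p = 0.0307). The ζ-carotene isomerase Cluster-16487.113884, of the next step, had 51.9, 58.9 and 56.2 FPKM in CK 1 d, against 90.3, 81.8 and 92.01 FPKM in CK 0 d and did not pass the test (edgeR adjusted p = 0.0664). In the carotenoid list, 9 of 87 were higher (10.3%) and 16 lower (18.4%) at an unadjusted p below 0.05, against 7.12% and 7.24% of all unigenes.

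Photosystem and chlorophyll-binding proteins were higher in 20 and lower in 5 of 78 tested unigenes (25.6% and 6.41%) at an unadjusted p below 0.05. The persimmon photosystem I subunit D-1 had 48.2, 12.3 and 26.7 CPM in CK 1 d, against 2.85, 4.58 and 5.82 CPM in CK 0 d and rose by 2.77 ± 0.49 (edgeR adjusted p = 0.0274 in the summed fit, and 0.011 to 0.114 without 1 library). Its 3 CK 1 d values spread widely, with CK 1 d A the highest, and the same library was the highest for photosystem II subunit P-1, at 54.2, 28.4 and 29.4 CPM in CK 1 d, against 10.5, 14.02 and 13.3 CPM in CK 0 d. The share of green tissue in each sample was not tested.

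The later fate of these differences was followed in CK 4 d, fruit returned to air and sampled at 4 d, also with 3 libraries. The comparison of CK 4 d with CK 1 d uses the CK 1 d libraries again, so a high CK 1 d value enters both comparisons. ACC oxidase Cluster-16487.161351 had 19.99 ± 1.21 FPKM at 0 d, 61.8 ± 6.60 FPKM at 1 d and 29.95 ± 1.49 FPKM at 4 d (SD, n = 3 each), and fell between 1 d and 4 d (log2 fold change -1.20 ± 0.11, edgeR adjusted p = 0.0102). Cyanoalanine synthase Cluster-16487.120747 had 36.8 ± 1.21 FPKM at 0 d, 87.3 ± 1.85 FPKM at 1 d and 54.7 ± 0.936 FPKM at 4 d and fell likewise (edgeR adjusted p = 0.0102). For Cluster-16487.169231 the levels were 19.9 ± 1.09 FPKM at 0 d, 171 ± 10.7 FPKM at 1 d and 27.7 ± 2.41 FPKM at 4 d (edgeR adjusted p = 0.00251 for CK 4 d against CK 1 d). DkWRKY1 Cluster-16487.59500 and the WRKY unigene Cluster-16487.40370 fell to 3.94 ± 0.811 and 0.730 ± 0.0346 FPKM in CK 4 d, against 12.03 ± 2.64 and 3.97 ± 1.32 FPKM in CK 1 d (edgeR adjusted p = 0.0262 and 0.0157). The values of these genes were therefore highest at 1 d.

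For other genes the 4 d mean lay near or beyond the 1 d mean. ZAT10-like Cluster-16487.121224 had 32.6 ± 3.31 FPKM at 0 d, 69.9 ± 2.70 FPKM at 1 d and 92.8 ± 3.75 FPKM at 4 d (edgeR adjusted p = 0.205 for CK 4 d against CK 1 d), CAF1 Cluster-16487.107302 had 9.25 ± 0.994 FPKM at 0 d, 27.6 ± 2.15 FPKM at 1 d and 30.8 ± 1.97 FPKM at 4 d (adjusted p = 0.985), and vacuolar invertase Cluster-16487.110206 had 10.8 ± 2.72 FPKM at 0 d, 34.1 ± 1.16 FPKM at 1 d and 33.2 ± 2.02 FPKM at 4 d (adjusted p = 0.297). ERF23 Cluster-16487.106007 had 42.3 ± 4.00 FPKM at 0 d, 72.2 ± 7.90 FPKM at 1 d and 107 ± 5.59 FPKM at 4 d, and the step after 1 d did not pass the test (edgeR adjusted p = 0.0848). SAH hydrolase Cluster-16487.111143 and ribosomal protein L38 Cluster-16487.86452 were lowest at 1 d, with 258 ± 22.2 FPKM at 0 d, 75.9 ± 15.6 FPKM at 1 d and 173 ± 2.56 FPKM at 4 d for the first and 162 ± 14.3 FPKM at 0 d, 88.9 ± 7.11 FPKM at 1 d and 169.8 ± 16.8 FPKM at 4 d for the second. Both rose between 1 d and 4 d (edgeR adjusted p = 0.0294 and 0.0289).

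**Figure D4:**
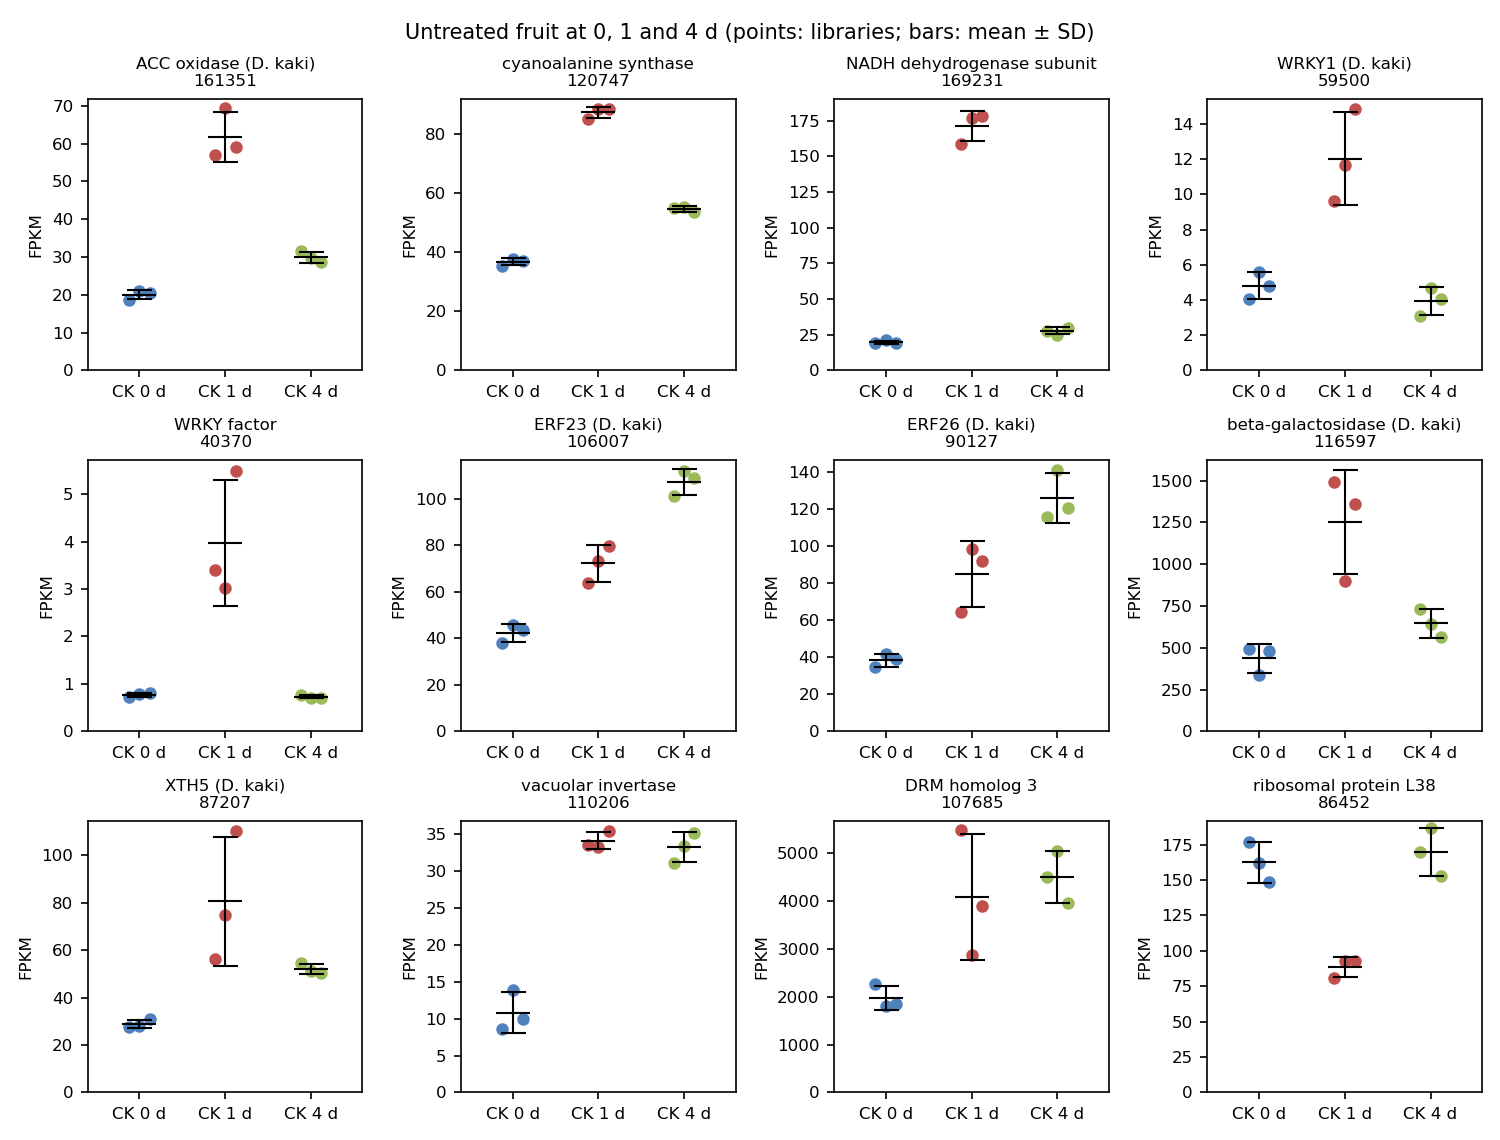
FPKM of 12 unigenes in untreated fruit at 0, 1 and 4 d (CK 0 d, CK 1 d and CK 4 d), with 1 point per library and bars for mean ± SD; the number over each panel is the last part of the unigene's identifier. ACC oxidase, cyanoalanine synthase, the complex I-like unigene and both WRKY unigenes peak at 1 d, ERF23 and ERF26 have their highest means at 4 d, and ribosomal protein L38 is lowest at 1 d.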

How the data were processed

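Fruit were held 1 d in air-tight containers with air and then kept in air at 20 °C. Flesh of CK 1 d and CK 0 d fruit was compared, 3 libraries each. RNA was extracted with CTAB and sequenced as paired ends on an Illumina HiSeq, and reads were assembled by the authors with Trinity (min_kmer_cov 2) without a genome. The deposited estimated counts (expected counts) per unigene are not normalized. Of all values per library, zeros included, 30.8% to 36% were not whole, and they were rounded. The deposited FPKM were normalized by the authors for unigene length and depth and served for levels only. The submitters' processing notes name RSEM, with no version. Total counts were 15782292 to 23716828.

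Unigenes were filtered with filterByExpr, scaled by TMM and tested with edgeR 4.0.16 (R 4.3.3) by the quasi-likelihood F test with Benjamini–Hochberg adjustment. DEGs had an adjusted p below 0.05 and over 5-fold; SE came from the fold change and F. Functional lists (54) were matched by KO, Pfam or NR description, and unigenes in text were the 2 most abundant of each list (mean count of at least 100), the called ones, the largest changes of unigenes with at least 50 FPKM, or chosen after their values were seen. Members and lists were chosen with earlier results of these data known, and 2 lists after the calls. For summed counts, unigenes with the same NR description (147691 have one) were added, and the others were kept singly. CPM is scaled to 1000000 counts of the library. Per the study 3 biological replicates were taken; how they were drawn is not given, so p-values measure the spread between these samples. Alternatives were DESeq2 1.42.0, other scaling, filter, fit, block, thresholds and libraries left out. The tests were tried on simulated data. Python 3.11.15, numpy 2.4.6, pandas 2.3.3, matplotlib 3.10.9 and the R package data.table (version 1.17.8) were used.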

Additional observations from a re-analysis of the deposited data

How the results depend on the processing

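The counts of single unigenes past an adjusted p of 0.05 depended on the fit. Main counts were 34 higher and 7 lower at any fold, and 5 and 3 over 5-fold. DESeq2 gave 1674 and 1374 at any fold, and 85 and 95 over 5-fold. No filter on low counts gave 337 and 278, and 86 and 103. All 7 groups in one fit gave 24 and 9, and 13 and 4. Counts summed by NR description gave 695 and 602, and 35 and 42. A 2-fold in place of a 5-fold threshold gave 31 and 7. With each library left out, counts were 0 to 1 in each direction at either threshold, with 1 and 1 at any fold without CK 1 d A. For summed counts without CK 1 d A, B and C in turn, 143, 823 and 83 entries (names and unnamed unigenes) were higher and 79, 1026 and 22 lower. Over 5-fold, 14, 53 and 10 were higher and 18, 69 and 8 lower. Without CK 0 d A, B and C, 70, 69 and 27 were higher and 30, 38 and 12 lower, and over 5-fold 9, 10 and 3 higher and 6, 6 and 5 lower. The labels do not say whether the replicate letters pair the samples. Correlations of deviations from group means were 0.0103, -0.000741 and 0.0435 for same letters, and -0.0382 to 0.0264 for unlike letters. With 3 libraries per group, these values cannot settle whether samples were paired. With the replicate block, 0 unigenes passed in either direction (lowest adjusted p 0.207, with 7855 at an unadjusted p below 0.05), and with the block on summed counts 607 and 554, and 26 and 27 over 5-fold. DESeq2 on summed counts gave 1279 and 1093, and 30 and 22 over 5-fold. Relative log expression factors and leaving out NR hits outside plants gave the main counts again. All fits of summed counts other than the plain one were chosen after seeing the data. No named unigene or name that was called changed direction in any fit. Among lists, counts at an unadjusted p moved by over 1.5 times in some cases when 1 library was left out, also for aquaporins (3 higher and 6 lower without CK 1 d A, 3 higher without CK 1 d B, 2 higher without CK 0 d C, 7 lower without CK 1 d C or CK 0 d B), MADS-box factors (6 higher and 9 lower without CK 1 d A or CK 0 d C) and clock genes (7 higher without CK 0 d A). Of the 43 summed names, all taken from those that passed, 37 kept an adjusted p below 0.05 with the block and 5 without each library in turn. The cause of these differences was not tested. Low depth limits unigenes of few counts, for which a count of 0 allows up to 3.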

Other observations

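Further groups of genes were described in the same way, and none of their unigenes passed the edgeR adjusted p unless stated. Over all unigenes tested, 7.12% were higher and 7.24% lower at an unadjusted p below 0.05. Clock genes had 12 of 73 tested unigenes higher (16.4%) and 5 lower (6.85%) at an unadjusted p below 0.05. LHY, Cluster-16487.128479, a morning-phased factor in Arabidopsis, had 11.9, 10.2 and 9.80 FPKM in CK 1 d, against 3.77, 4.18 and 6.83 FPKM in CK 0 d (log2 fold change 1.18 ± 0.23, edgeR adjusted p = 0.0948). GIGANTEA, Cluster-16487.108520, an evening-phased gene in Arabidopsis, had 42.5, 40.99 and 38.4 FPKM in CK 1 d, against 43.3, 56.5 and 54.6 FPKM in CK 0 d (edgeR adjusted p = 0.342). The hour of sampling is unknown here.

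Late embryogenesis abundant proteins and dehydrins, which protect cells from drying, had 6 of 30 higher (20%) and 2 lower (6.67%) at an unadjusted p below 0.05. Dehydrin DHN1, Cluster-16487.170050, had 75.99, 23.4 and 20.3 FPKM in CK 1 d, against 3.31, 1.49 and 3.89 FPKM in CK 0 d, with CK 1 d A the highest (edgeR adjusted p = 0.0832). The LEA protein 3L-1 name rose by 1.08 ± 0.08 in the summed fit, with 46.97, 49.6 and 49.99 CPM in CK 1 d, against 21.7, 24.8 and 25.4 CPM in CK 0 d (edgeR adjusted p = 0.00343, and 0.00757 to 0.042 without 1 library). Aquaporins, the water channels, had 6 of 61 higher (9.84%) and 11 lower (18%). The plasma membrane form Cluster-16487.110039 had 142, 215 and 171 FPKM in CK 1 d, against 326, 354 and 354 FPKM in CK 0 d, and the vacuolar form Cluster-16487.78639 had 141, 49.2 and 66.2 FPKM in CK 1 d, against 26.98, 20.4 and 18.1 FPKM in CK 0 d (edgeR adjusted p = 0.0755 and 0.114). MADS-box factors, which include ripening and flower regulators, had 10 of 74 higher (13.5%) and 15 lower (20.3%). The CMB1-like Cluster-16487.112667 had 187, 187 and 179 FPKM in CK 1 d, against 123, 118 and 121 FPKM in CK 0 d (edgeR adjusted p = 0.0546). Class III peroxidases had 3 of 38 higher (7.89%) and 8 lower (21.1%), with 4 lower without CK 0 d B or C, and 5 without CK 1 d A or C. They summed to 406 to 555 FPKM in CK 1 d and 595 to 713 FPKM in CK 0 d. Small heat shock proteins had 4 of 74 higher (5.41%) and 2 lower (2.7%), both below the shares over all unigenes. Without CK 1 d A, 10 were higher, and without CK 1 d B, 7 were lower. Calcium-binding and phosphatase genes known from touch and wounding had 9 of 32 higher (28.1%) and 2 lower, and UDP-glycosyltransferases, which add sugars to small molecules, 18 of 134 higher (13.4%) and 4 lower. Starch enzymes ran the other way, with 10 of 138 higher and 23 lower (16.7%), and 6 higher without CK 1 d A, 14 lower without CK 1 d C or 15 without CK 0 d A.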
